A study of Mus musculus with 6 samples.

Results

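Transcripts of 4 genes for embryo-supporting oviduct secretions were followed: the demilune cell and parotid protein genes Dcpp1, Dcpp2 and Dcpp3, and Ovgp1, which encodes the oviductal glycoprotein. They were taken by symbol from a table of 55363 symbols per library, and all 4 were found. The tissue was whole oviduct from pregnant mice, 6 to 8 weeks old at mating, on gestational day 3, where the plug marks day 1. The groups were Mettl3 f/f (n = 3 libraries) and Mettl3 d/d (n = 3 libraries). All females had been mated with fertile males. Mettl3 encodes the catalytic subunit of the enzyme that writes N6-methyladenosine on RNA. By usual notation f/f is the allele flanked by loxP sites and d/d the deleted one. The sources used here do not name the deleted exons, the Cre driver, the strain or the cells in which the deletion occurs.

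The epithelium of the oviduct holds ciliated cells, which move fluid and embryos, and secretory cells, which release the proteins that bathe gametes and cleaving embryos. DCPP proteins were named for the demilune cells of salivary glands. The oviduct also secretes them, and they are known to promote the growth of mouse embryos before implantation. OVGP1 is a heavily glycosylated, chitinase-like protein without known chitinase activity, made by the secretory cells under estrogen, and it binds the zona pellucida and the embryo.

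The Dcpp genes are adjacent copies on the plus strand of chromosome 17, and the coding stretch in which they differ most is shown first, because reads can be assigned to 1 copy only where the copies differ. In GRCm38 (GENCODE M21) Dcpp1 (ENSMUSG00000096445) runs from 23880876 to 23882853, Dcpp2 (ENSMUSG00000096278) from 23880880 to 23900788 and Dcpp3 (ENSMUSG00000057417) from 23917458 to 23919441. The long span of Dcpp2 comes from an annotated transcript whose first exon lies inside Dcpp1. The 120 bases below come from the last coding exon, and capitals mark the 26 positions at which the copies are not all alike.
Dcpp1, chr17:23882553-23882672, plus strand: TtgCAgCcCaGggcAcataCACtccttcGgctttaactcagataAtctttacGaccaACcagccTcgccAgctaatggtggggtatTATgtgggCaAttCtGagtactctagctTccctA
Dcpp2, chr17:23900488-23900607, plus strand: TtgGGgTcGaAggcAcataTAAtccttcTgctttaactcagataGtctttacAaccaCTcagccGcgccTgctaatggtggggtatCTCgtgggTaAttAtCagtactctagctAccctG
Dcpp3, chr17:23919141-23919260, plus strand: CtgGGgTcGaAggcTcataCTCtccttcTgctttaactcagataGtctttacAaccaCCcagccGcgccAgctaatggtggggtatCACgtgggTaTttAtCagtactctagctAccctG
Over the whole coding sequence (513 bases in Dcpp1 and Dcpp2, 510 in Dcpp3) Dcpp1 matched Dcpp2 at 93.8% of aligned bases and Dcpp3 at 93.7%, and Dcpp2 matched Dcpp3 at 95.9%. Of 50-base windows of the transcripts, 46.5% of those of Dcpp1, 30.6% of those of Dcpp2 and 36.5% of those of Dcpp3 also occurred in another copy. For 100-base windows the shares were 19.9%, 9.39% and 20.4%. The sources used here do not give the read length, and the copies are therefore described both singly and summed.

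Mettl3 FPKM, fragments scaled by transcript length and by the mapped total, was 11.8, 12.1 and 13.2 in the f/f libraries and higher, 19.8, 20.3 and 24.5, in those labelled d/d. A value for the whole gene cannot show a missing exon, so it did not check the genotype labels, on which every direction given here rests. Replicate 1 was the lowest library of each group in Hoxa10, a gene of position along the tract (f/f 3.48, 26.5 and 25.1 FPKM, d/d 4.24, 9.47 and 12.4). The ciliated cell gene Foxj1, given further on, was highest in f/f replicate 1 and lowest in d/d replicate 1. Hoxa10 was picked from 7 listed region genes, and others differed. Hoxa9 set apart f/f replicate 1 only (f/f 20.0, 73.6 and 64.6 FPKM, d/d 22.7, 23.2 and 26.5). Pax2 was highest within d/d in replicate 1 (14.4, 8.76 and 12.2). Results are therefore also given without those libraries. The depth was 16600000 to 17800000 fragments per library, as implied by the steps of the lowest values.

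Transcripts of all the demilune cell protein genes were lower in d/d, while those of Ovgp1 remained among the most abundant in both groups. Summed over the copies, the mean level was 10.1-fold lower in d/d, and 5.34-fold without both replicates numbered 1. Each copy passed the test, but the calls are not independent where copies share reads. Those of Dcpp2 and Dcpp3 were lost in most of the alternative settings described below. Of the 4 genes, 3 fell and 0 rose, where 4.97% of the 15438 features tested fell, 6.04% rose and 11.0% did either (limma, Benjamini-Hochberg adjusted p under 0.05). The groups did not overlap for 3 of the 4 genes, nor for 35.6% of all features, 17.4% with d/d lower. Whole tissue was measured, in which fewer secreting cells and less RNA per cell cannot be told apart. Features were tested when their mean over the 6 libraries was at least 1 FPKM. All 4 genes were, but Dcpp1 and Dcpp2 passed that filter only through their f/f values. The count therefore describes these genes and supports nothing further.

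**Figure D1:**
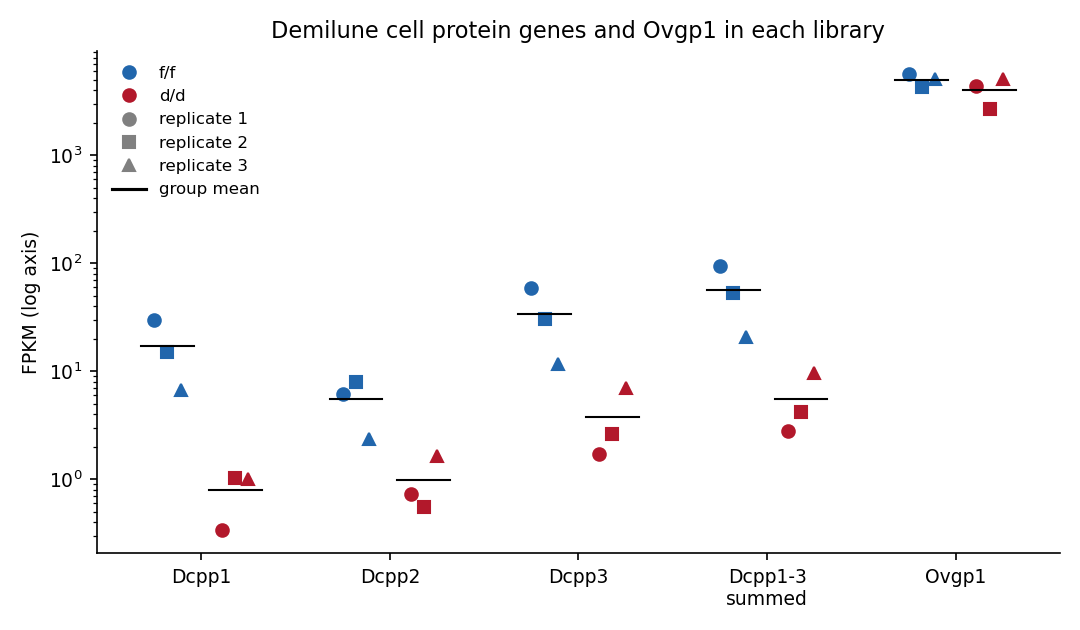
FPKM (log axis) of Dcpp1, Dcpp2, Dcpp3, their sum and Ovgp1 in each library. Blue points are f/f and red points d/d libraries, marker shapes are replicates and bars are group means. The 3 f/f points lie above the 3 d/d points for each Dcpp copy and for the sum, while the Ovgp1 points of the groups overlap.

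For Dcpp1 the f/f libraries read 29.9, 14.9 and 6.70 FPKM and the d/d libraries 0.335, 1.02 and 1.01, replicates 1 to 3 in each case here and below. The lowest f/f library was 6.59-fold above the highest d/d library, so the groups lay well apart in spite of a 4.47-fold range within f/f. The mean fell from 17.2 ± 11.8 to 0.787 ± 0.391 FPKM (SD, n = 3 each), a 21.8-fold difference of means. The change in log2(FPKM + 1), d/d minus f/f, was -3.15 (SE 0.49, 95% interval from -4.31 to -1.99, limma adjusted p = 0.0138). Because 1 is added to each value, this scale understates the change of a gene this low, and with 0.1 added the change was -4.16 (limma adjusted p = 0.0121). Leaving out f/f replicate 2 ended the call (limma adjusted p = 0.0583), and the ratio of means was 13.7 without f/f replicate 1 and 10.7 when d/d replicate 1 was left out as well.

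Dcpp3 was the most abundant copy in every library. The f/f libraries read 58.3, 30.5 and 11.6 FPKM, the d/d libraries 1.71, 2.59 and 7.05. The groups did not overlap, but f/f replicate 3 was only 1.65-fold above d/d replicate 3. The mean fell 8.85-fold, from 33.5 ± 23.5 to 3.78 ± 2.86 FPKM (SD, n = 3 each), with a log2 change of -2.74 (SE 0.62, limma adjusted p = 0.0390). The adjusted p stayed under 0.05 without f/f replicate 3 and rose above it without any other single library, to between 0.0554 and 0.123. The ratio of means was 5.57 once f/f replicate 1 was left out, 4.37 with d/d replicate 1 left out too, and 15.6 without d/d replicate 3.

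Dcpp2 was the least abundant copy in f/f and had the smallest fold. The f/f libraries read 6.17, 7.86 and 2.37 FPKM, the d/d libraries 0.730, 0.552 and 1.65. The lowest f/f value was 1.44-fold above the highest d/d value, the narrowest gap of the copies. Group means were 5.47 ± 2.81 and 0.977 ± 0.588 FPKM (SD, n = 3 each), 5.60-fold apart. The log2 change of -1.64 (SE 0.40) lay at the edge of the threshold (limma adjusted p = 0.0481), and with 0.1 added in place of 1 it was -2.34 (limma adjusted p = 0.0442). That call too held without f/f replicate 3 and was lost without any other single library (adjusted p from 0.0768 to 0.148), and the ratio of means was 8.53 without d/d replicate 3.

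Reads that were divided among the copies stay within their sum. It came to 94.4, 53.3 and 20.7 FPKM for f/f, against 2.78, 4.16 and 9.70 for d/d, with means of 56.1 ± 36.9 and 5.55 ± 3.67 FPKM (SD, n = 3 each). All f/f libraries were above all d/d libraries, the nearest pair by 2.13-fold, and the summed level varied 4.56-fold within f/f and 3.49-fold within d/d. Fitted as 1 feature in place of the copies, the sum changed by -3.02 on the log2 scale (SE 0.59, 95% interval from -4.44 to -1.61, limma adjusted p = 0.0258). An exact permutation test, two-sided, gave p = 0.1 for the sum and for each copy, its lower limit with 3 libraries against 3. The adjusted p rose above 0.05 when f/f replicate 2 (0.0951), the first (0.0721) or the second (0.0846) d/d library, or both replicates numbered 1 (0.0657) were left out. The ratio of means was then 5.34 without both replicates numbered 1; it was 6.67 without the f/f one alone and 16.2 without d/d replicate 3.

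Few fragments lay behind the d/d values. From the depth and the transcript lengths the sum stood for about 598, 336 and 126 fragments (f/f) against 17, 24 and 58 (d/d). For Dcpp1 the estimates were 193, 96 and 41 fragments (f/f) against 2, 6 and 6 (d/d). These are estimates for transcripts of 589 to 617 bases. In d/d Dcpp3 led with 10, 15 and 42 estimated fragments, and which of Dcpp1 and Dcpp2 was lower is uncertain at such depth.

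Each copy's share of the sum was also compared. Dcpp1 made up 31.7%, 28.0% and 32.4% of the summed FPKM in the f/f libraries, against 12.1%, 24.4% and 10.4% in the d/d libraries, without overlap. Dcpp3 made up 56.2% to 61.7% in f/f and 61.6% to 72.6% in d/d. Dcpp2 ranged from 6.54% to 14.7% in f/f and from 13.3% to 26.3% in d/d, with overlap. The shares were not tested, and in d/d that of Dcpp1 rests on the few fragments given above.

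**Figure D2:**
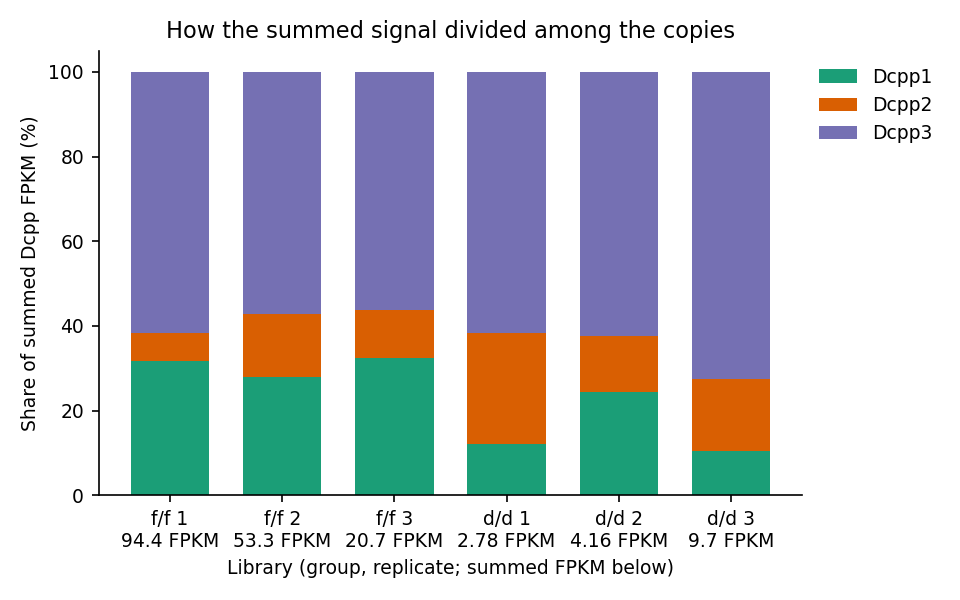
Share (%) of the summed FPKM assigned to Dcpp1, Dcpp2 and Dcpp3 in each of the 6 libraries, with the summed FPKM under each bar. Dcpp3 takes more than the other copies together in every library, and Dcpp1 takes 28.0% to 32.4% in f/f against 10.4% to 24.4% in d/d.

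The copies are also alike in the sequence before their start, and its part in their lower transcript levels was not tested. The 90 bases end 11 bases before the RefSeq start (GRCm38.p6), and capitals mark the letters TATAA.
Dcpp1, chr17:23880776-23880865, plus strand: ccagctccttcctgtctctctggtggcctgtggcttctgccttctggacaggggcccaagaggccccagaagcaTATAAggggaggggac
Dcpp2, chr17:23898622-23898711, plus strand: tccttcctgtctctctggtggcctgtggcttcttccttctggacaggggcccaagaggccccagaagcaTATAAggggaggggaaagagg
Dcpp3, chr17:23917358-23917447, plus strand: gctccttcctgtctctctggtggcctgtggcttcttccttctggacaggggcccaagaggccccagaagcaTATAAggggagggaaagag
Over the 250 bases before the start the copies matched at 97.1% to 98.0% of aligned bases, more than over their coding sequences. TATAA or its reverse complement TTATA occurs in 24.9% of the 32851 RefSeq promoter windows (250 bases before to 50 after a start). In the same windows of the copies there was no AGGTCA, an estrogen receptor half-site (16.3% of windows, both strands), and no AGAACA, a progesterone and glucocorticoid receptor half-site (19.0%, both strands). These are matches of letters, not binding sites.

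Ovgp1 (ENSMUSG00000074340; chromosome 3, 105973711 to 105987423, plus strand) showed no difference beyond its spread. The f/f libraries read 5690.3, 4264 and 5025 FPKM, the d/d libraries 4329, 2651 and 5059. The groups overlapped, and d/d replicate 2 was the lowest of the 6 libraries. The means were 4993 ± 714 and 4013 ± 1235 FPKM (SD, n = 3 each), with a log2 change of -0.36 (SE 0.31, limma adjusted p = 0.479; exact permutation p = 0.5, 2-sided). The 95% interval of that change, from -1.09 to 0.38, runs from a 2.13-fold lower to a 1.30-fold higher level in d/d. Depth did not limit this gene, with an estimated 103911 to 239141 fragments per library.

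By level, Ovgp1 ranked 1, 2 and 1 among nuclear protein-coding genes of the f/f libraries and 3, 3 and 2 among those of the d/d libraries. It held 0.990% to 1.41% of the FPKM of those genes in f/f and 0.644% to 1.13% in d/d. Only Rps27rt, Actb and Tmsb4x, genes for a ribosomal protein, an actin and an actin-binding peptide, stood above it in any library. Among all features its rank was 6, 8 and 6 (f/f) against 13, 15 and 12 (d/d). Of the features above it, 1 to 3 were mitochondrial in f/f and 4 to 6 in d/d, where mitochondrial genes held 6.50% to 9.70% of all FPKM against 3.61% to 5.70% in f/f. Quantile normalization, which sets a value by its rank in the library, gave Ovgp1 a log2 change of -0.95 that passed the threshold (limma adjusted p = 0.0243). No other alternative did.

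The Ovgp1 window holds receptor half-sites that the Dcpp windows lack. The 100 bases that end 101 bases before its RefSeq start are printed, with AGGTCA and TGTTCT, the reverse complement of AGAACA, in capitals.
Ovgp1, chr3:105973602-105973701, plus strand: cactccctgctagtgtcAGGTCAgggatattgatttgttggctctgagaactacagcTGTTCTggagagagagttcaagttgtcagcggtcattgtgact
The full estrogen response element palindrome was in none of the 4 windows and in 0.0700% of all. As the study concerns N6-methyladenosine, the letters GGACT, a core of its commonest motif, were counted in the transcripts. They occurred 0 times in each annotated protein-coding transcript of the Dcpp copies, which are 589 to 689 bases long. The main Ovgp1 transcript held 2 in 2616 bases, or 0.765 per kilobase. Over 58797 protein-coding transcripts of all lengths the median was 1.02 per kilobase, and 78.7% held at least 1. A transcript as short as those of Dcpp can hold 0 at that density, and the copies are alike in sequence. A match is not a methylated site, and methylation was not measured.

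Relative to Ovgp1, the Dcpp transcripts were scarcer in every d/d library than in any f/f library. Ovgp1 FPKM was 60.3, 80.0 and 243 times the summed Dcpp FPKM among f/f libraries and 1558, 638 and 521 times among d/d libraries. The log2 ratio was higher by 2.93 in d/d (exact permutation p = 0.1, two-sided, its lower limit). The ratio is taken within a library, so scaling between libraries does not enter it.

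Markers of the cell types of the tissue were read against the 6.04% of all features that rose and the 4.97% that fell. The epithelial genes Pax8 and Epcam, the ciliated cell regulator Foxj1 and the smooth muscle myosin gene Myh11 were above 10 FPKM in every library, as the oviduct label would have it. Of 8 tested smooth muscle genes 0 rose and 1 (Des) fell. Their summed level was 2175 to 5265 FPKM (f/f) against 2710 to 4426 (d/d). Myh11 was at 232, 580 and 624 FPKM (f/f) against 418, 251 and 270 (d/d). It was lowest in f/f replicate 1, the library with the highest summed Dcpp level. Among 13 tested epithelial genes 3 rose (Epcam, Cdh1 and Elf3) and 2 fell (Krt18 and Msx1), and their summed level was 1387 to 1832 FPKM (f/f) against 1107 to 1295 (d/d). Of 21 tested genes of multiciliated cells 0 rose and 1 (Rfx2) fell, a share close to that of all features, with a summed level of 361 to 999 FPKM (f/f) against 117 to 570.4 (d/d). Their median log2 change was nevertheless -0.90, against -0.01 over all features, and the groups did not overlap for 2 of them. For Foxj1 the f/f libraries read 93.8, 46.5 and 27.9 FPKM, ordered as the summed Dcpp level was. The d/d libraries read 11.9, 56.1 and 32.9, whereas Dcpp was highest in replicate 3. Of 12 macrophage genes 11 rose and 0 fell, with a summed level of 455 to 562 FPKM (f/f) against 1228 to 1612 (d/d). The part of these cell types in the Dcpp result was not tested.

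Salivary gland genes were mostly at or near 0, with 2 exceptions. Of 11 listed salivary genes in the tables, 7 (Smgc, Bpifa2, Prol1, Prb1, Smr2, Smr3a and Sval1) were listed at 0 in all 6 libraries, and Muc19 and Pip were under 1 FPKM. Pip, too low to be tested, was higher in d/d, at 0.0352, 0 and 0 FPKM (f/f) against 0.550, 0.738 and 0.918 (d/d). Amy1, a salivary amylase that other tissues make too, was at 7.55 to 12.1 FPKM (f/f) against 8.63 to 12.0 (d/d) (limma adjusted p = 0.832). Sval2 was at 1.62, 11.3 and 5.96 FPKM (f/f) against 1.22, 0.599 and 1.89 (d/d), with overlap. Its mean was 5.09-fold lower in d/d, a fold near that of Dcpp2, with a log2 change of -1.48 that missed the threshold (limma adjusted p = 0.134). Markers of neighbouring organs were partly present. Of 6 uterine gland genes Prss28 and Spink1 were listed at 0 in every library, Lif stayed between 0.634 and 2.05 FPKM, and Foxa2 ranged from 0.554 to 9.57 and Cxcl15 from 0 to 8.68. Prss29 was at 0.308, 1.29 and 0.957 FPKM (f/f) against 3.80, 1.96 and 1.88 (d/d), without overlap (limma adjusted p = 0.107). The 6 genes summed to 3.04 to 8.93 FPKM (f/f) against 6.65 to 21.7 (d/d). Of 10 ovarian genes Cyp17a1 and Fshr were listed at 0 throughout, while Inha was at 3.02 to 5.29 FPKM and Inhbb at 3.72 to 11.6 over the 6 libraries. The steroidogenic gene Cyp11a1 was at 13.5 FPKM in f/f replicate 3 and under 1 FPKM in the others. Star was also highest there, at 2.44, 2.98 and 7.62 FPKM (f/f) against 1.77, 2.30 and 2.09 (d/d). Lhcgr was at 1.61 FPKM there and at most 0.0732 in the others. Inha, Inhbb and Gdf9 were not highest in that library, which had the lowest f/f Dcpp sum. The ovarian genes summed to 14.4 to 33.1 FPKM (f/f) against 14.2 to 20.0 (d/d). Of the 4 uterine gland and 5 ovarian genes tested 0 passed, and their part in the Dcpp result was not tested.

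Some other secretions and embryo-acting factors of the oviduct rose. Of 27 tested genes of that list 6 rose and 1 fell, with a median log2 change of 0.32 against -0.01 over all features. Beside the 11.0% called among all features, 7 of 27 passed. The iron-binding protein gene Ltf rose from 264, 555 and 641 to 1436, 2192 and 2408 FPKM (limma adjusted p = 0.0190) and the chaperone gene Clu from 251, 95.8 and 135 to 439, 871 and 503 (limma adjusted p = 0.0287). Lcn2, C3, Spp1 and Muc1 were the other genes that rose. Adm, which encodes the peptide adrenomedullin, was the gene that fell, from 10.8, 15.0 and 14.3 to 5.31, 5.05 and 4.78 FPKM (limma adjusted p = 0.00856). Among the listed secretions tested, the Dcpp copies had the 3 lowest log2 changes. Dcpp1 and Dcpp2 were tested only because of their f/f values, and the genes were chosen with earlier results known. The ranking therefore describes these genes and supports nothing further. That ranking leaves out genes under the filter. Of those, Il6 went from 0.644, 2.24 and 2.18 FPKM (f/f) to 0, 0.302 and 0 (d/d), with means of 1.69 and 0.101 FPKM.

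**Figure D3:**
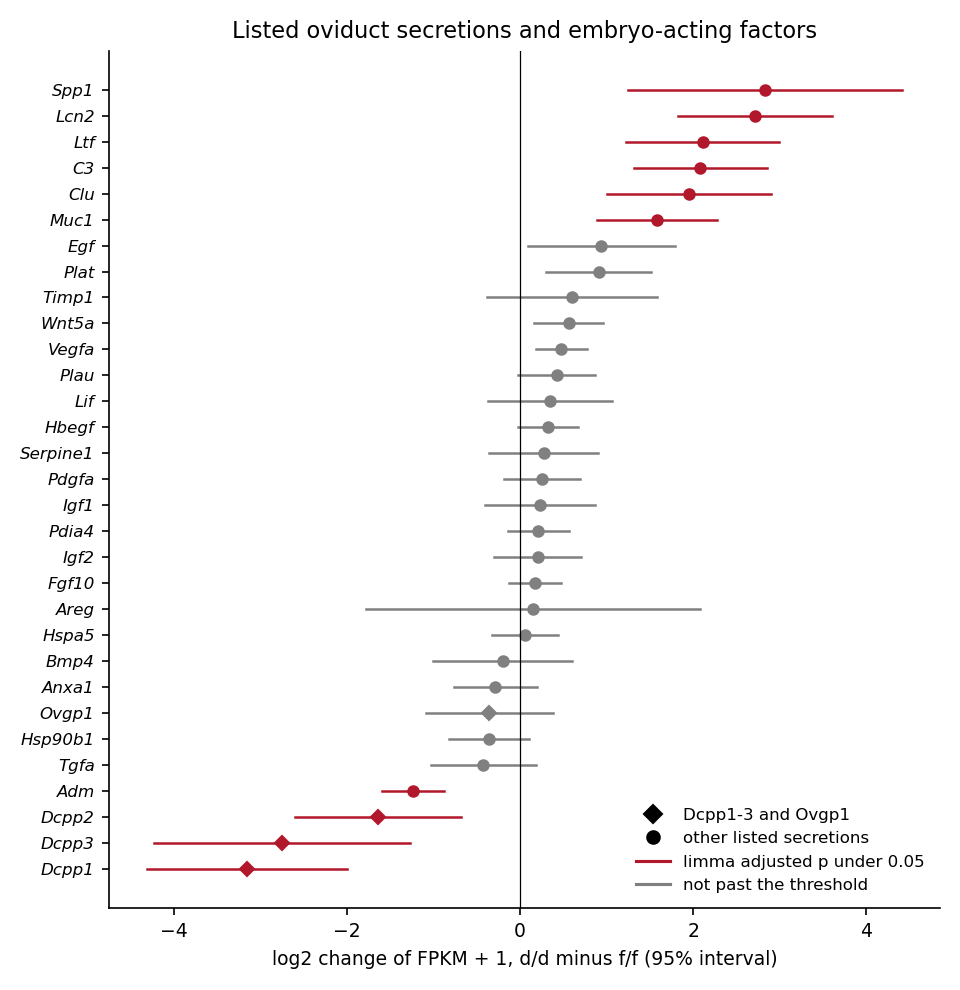
Log2 change of FPKM + 1, d/d minus f/f, with its 95% interval, for the Dcpp copies and Ovgp1 (diamonds) and 27 other listed oviduct factors (circles), red where the limma adjusted p is under 0.05. The Dcpp copies and Adm lie on the left in red, Ovgp1 crosses 0, and Spp1, Lcn2, Ltf, C3, Clu and Muc1 lie on the right in red.

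The secretory pathway and steroid reception were described by lists, to be read against the 11.0% of features called in either direction. Of 22 tested genes for translocation, folding and O-glycosylation of secreted proteins 1 rose (Galnt3, which starts O-linked sugar chains, 1.58-fold) and 0 fell, with a median log2 change of -0.00167. The chaperone gene Hspa5 was at 420, 440 and 545 FPKM (f/f) against 498, 421 and 541 (d/d). Of 4 tested steroid receptor genes 0 passed; Esr1 was at 136, 140.1 and 139 FPKM (f/f) against 168, 138 and 155 (d/d), and Pgr at 35.3, 43.3 and 44.4 against 34.5, 45.6 and 40.3. Of 14 genes of the estrogen response list 6 rose (Ltf, C3, Lcn2, Muc1, Sprr2f and Muc4) and 1, the retinoic acid hydroxylase Cyp26a1, fell. Ltf, C3, Lcn2 and Muc1 stand in both lists. Spdef, a transcription factor of secretory cells, was picked out after its values were seen. It belongs to the 13 epithelial genes given above, of which 3 rose and 2 fell. Spdef was at 35.2, 10.1 and 13.7 FPKM (f/f) against 6.57, 3.65 and 4.65 (d/d), without overlap, and missed the threshold (limma adjusted p = 0.0595).

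Relatives of the encoded proteins were followed too. Of 9 chitinase-like genes listed beside Ovgp1, 5 were tested and 0 passed, a number too small to set apart from the 11.0% of all features. The largest folds were those of Chil3, 13.4-fold higher in d/d, and Chil1, 10.1-fold higher, at 1.00, 0.393 and 0 FPKM (f/f) against 11.4, 2.18 and 0.415 (d/d) with overlap (limma adjusted p = 0.256). Chid1 was the most abundant, at 25.5, 36.9 and 34.9 FPKM (f/f) against 61.4, 44.9 and 51.7 (d/d) (limma adjusted p = 0.0544), and Ctbs, a lysosomal enzyme of glycan breakdown, was at 5.65 to 7.89 FPKM (f/f) against 6.96 to 7.53 (d/d). Zg16, which encodes a secreted lectin related to the DCPP proteins, ranged from 0.274 to 2.24 FPKM (f/f) against 0.159 to 9.30 (d/d) (limma adjusted p = 0.530).

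Around the Dcpp copies, within 200 kb, there were 21 other protein-coding genes, of which 8 were tested and 1 passed, a share near the 11.0% of all features. That was Pdpk1, a kinase gene 154 kb away, which went from 19.3, 17.5 and 18.6 to 12.1, 12.5 and 11.2 FPKM (limma adjusted p = 0.0183). The others tested were Pkmyt1, Paqr4, Flywch1, Flywch2, Srrm2, Elob and Kctd5, with log2 changes from -0.61 to 0.41. The nearest genes on each side, Prss21 at 7.76 kb and the spermine-binding protein gene Sbp at 22.2 kb, were listed at 0 or below 1 FPKM in every library. Inside the cluster 4 non-coding models on the other strand were listed at 0 in all 6 libraries. Within 200 kb of Ovgp1, 7 of 10 protein-coding genes were tested and 0 passed, too few to set apart from that 11.0%. Atp5pb, Wdr77 and Rap1a had log2 changes from -0.35 to 0.03. Its neighbour Pifo, a ciliary gene, was at 68.9, 29.8 and 18.6 FPKM (f/f) against 4.72, 31.5 and 24.5 (d/d). Chil3, a chitinase-like gene of myeloid cells, was at 1.32, 0.220 and 0.321 against 18.2, 4.88 and 1.81 FPKM (limma adjusted p = 0.0917), and Chia1 at 0.824 to 4.04 against 1.51 to 3.38. A non-coding model that overlaps Ovgp1 on its strand was at 8.86 to 12.9 FPKM (f/f) against 4.01 to 6.50 (d/d), and reads of the overlap cannot be told apart.

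Among 7971 other named protein-coding genes with a mean of at least 10 FPKM, the profile most like that of the summed Dcpp level over the 6 libraries was that of Ccdc189, a ciliary gene (Pearson r = 0.984 of log2(FPKM + 1)), followed by Ankrd46, Ube2j1, Mpg and Wdr35 (0.977 to 0.979). Ccdc189 was at 23.7, 17.4 and 12.8 FPKM (f/f) against 8.34, 9.64 and 11.0 (d/d). Likeness of profile does not measure size: Ccdc189 was 1.86-fold lower in d/d, and none of those 5 passed the threshold. The most opposite profiles were those of Pgd, Ccdc32, Rpl31, Trappc3 and Mrpl14 (r from -0.990 to -0.982), of which Pgd and Rpl31 passed as higher in d/d. For Ovgp1 the nearest were Tbc1d22a, Phyhd1, Ints8, Gstt2 and Thrsp (r from 0.977 to 0.988) and the most opposite Tnip1, Lpgat1, Chst11, Atp8b1 and Ssh3 (-0.974 to -0.949). With 6 libraries such values describe the order of the libraries and carry no test.

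**Figure D4:**
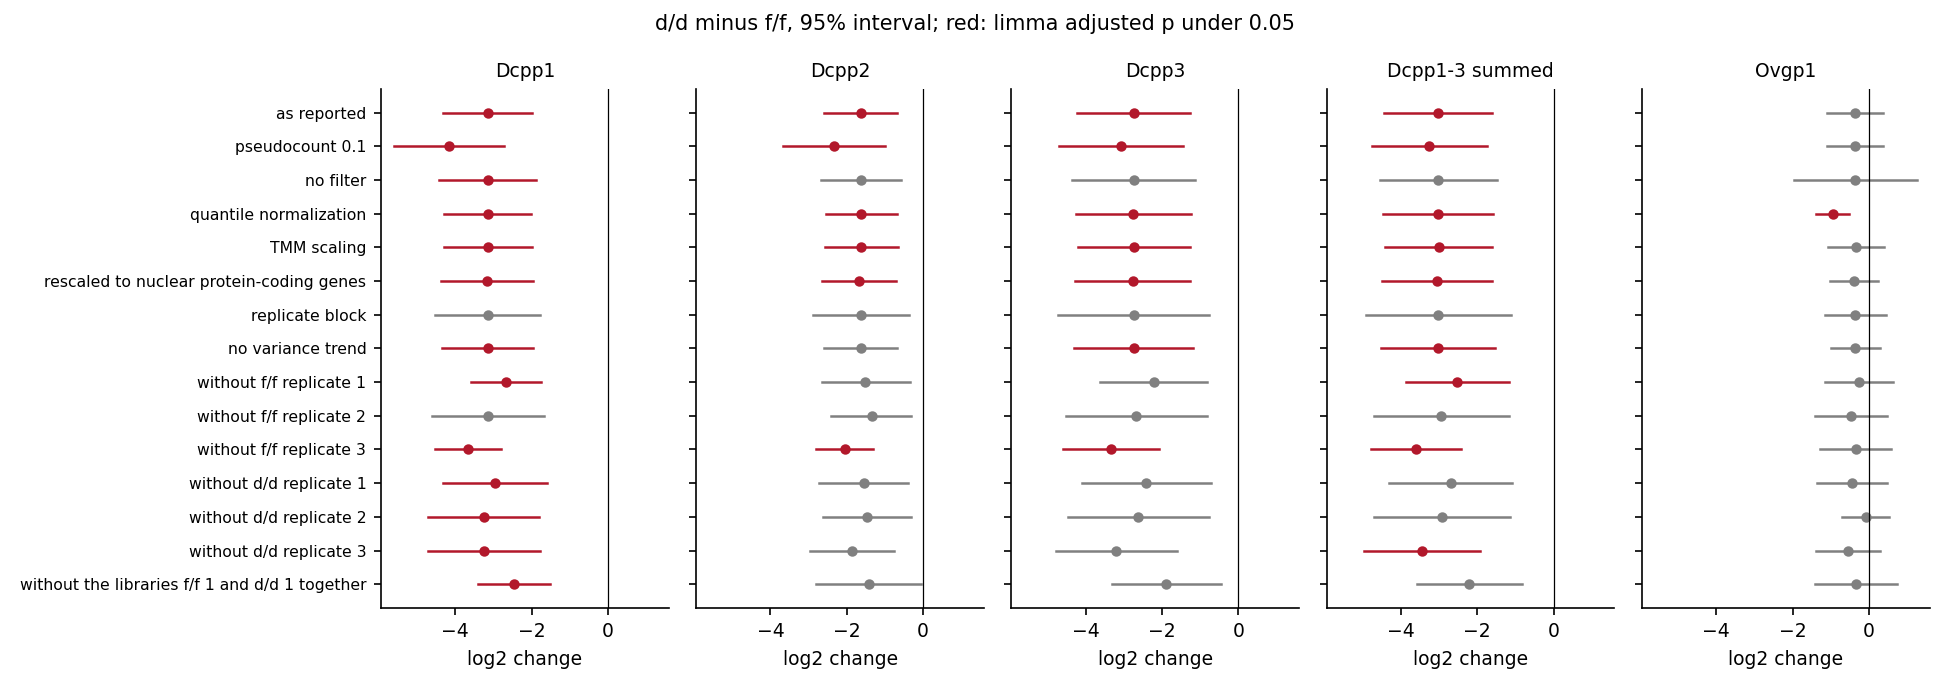
Log2 change, d/d minus f/f, with its 95% interval, for each gene and the Dcpp sum as reported and under 14 alternative settings, red where the limma adjusted p is under 0.05. All Dcpp values lie left of 0 in each setting, many in grey, and Ovgp1 is red under quantile normalization alone.

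Across all 14 alternatives each Dcpp copy and the sum kept a negative change. The number of settings in which the adjusted p stayed under 0.05 was 12 for Dcpp1, 5 for Dcpp2, 6 for Dcpp3 and 8 for the sum, as the plot of the alternative settings shows.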

How the data were processed

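The authors deposited a table per library of decimal values for 55483 Ensembl genes. They were read as FPKM because, per the submitters' processing notes, Cufflinks 2.2.1 was among the tools, with HISAT2 2.2.1 and the builds mm9 and mm10, and because the deposited totals differ between libraries. The sources used here do not give the annotation, the strand setting or the treatment of reads that match several places. Rows sharing a symbol (114 symbols) were added up. limma 3.58.1 (R 4.3.3) was fitted to log2(FPKM + 1) of the features whose mean reached 1 (variance trend, genotype as the only term, two-sided, Benjamini-Hochberg adjustment over all features, threshold 0.05). The fit was tested on simulated data. Fragments per library were estimated from single-transcript genes over 1500 nt with FPKM under 0.1, after 255 nt were subtracted from the transcript length. Of the values near or below the commonest step (303 to 395 genes per library), 91.6% to 95.5% lay within 1% of it. Larger values were left out of that share. Sequences came from GENCODE M21 and RefSeq (GRCm38.p6, 4 of 4 members matched) and were aligned with Biopython 1.88. Whether the replicates are separate animals is not in the labels; the p-values then reflect only sample-to-sample spread, possibly technical.

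The 4 members and all lists were chosen with earlier results of these data known. Named genes were Mettl3, the members, at most 4 called genes per list (or the 2 most abundant where none passed), tested neighbours within 200 kb, and the 5 most like and 5 most opposite profiles. Model names were left out. Genes that complete a count, the cell-type markers named, Zg16, Clu, Chil1, Hspa5, Il6, Prss21, Sbp and Spdef were added after their values were seen. Replicate numbers are shared by the groups, and the labels do not say what they mark. Deviations of same-numbered libraries were not clearly correlated, which with 3 libraries per group cannot exclude a pairing. Alternatives were a pseudocount of 0.1, no filter, 3 other scalings, no variance trend, the replicate number as a block, and libraries left out.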

Additional observations from a re-analysis of the deposited data

How the results depend on the processing

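The direction was negative for every member and for the sum in all 14 alternatives. With the replicate number as a block the log2 changes were -3.15 (Dcpp1, limma adjusted p = 0.0612), -1.64 (Dcpp2, 0.135), -2.74 (Dcpp3, 0.123), -3.02 (sum, 0.0981) and -0.36 (Ovgp1, 0.501), and 276 features passed in place of 1701. Whether the numbers pair the libraries is not known. The correlations of same-numbered deviations were -0.220, -0.058 and 0.003, and those of differently numbered libraries ran from -0.276 to 0.282. With 3 libraries per group such values cannot exclude a shared batch or litter. Without the filter on low values 1107 features passed, and the calls of Dcpp2 (-1.64, adjusted p = 0.0954), Dcpp3 (-2.74, 0.0793) and the sum (-3.02, 0.0579) were lost. This setting tests more features. Without a variance trend Dcpp2 missed the threshold (-1.64, 0.0514). With both replicates numbered 1 left out, Dcpp2 (-1.43, 0.157), Dcpp3 (-1.89, 0.0987) and the sum (-2.21, 0.0657) missed it. Quantile normalization gave Ovgp1 -0.95 (0.0243). Leaving out single libraries gave ranges of -3.66 to -2.66 for Dcpp1, -2.05 to -1.35 for Dcpp2, -3.34 to -2.22 for Dcpp3, -3.60 to -2.53 for the sum and -0.55 to -0.08 for Ovgp1, and 308 to 1795 features past the threshold. Omitting f/f replicate 1, 2 or 3 left 1795, 308 and 525 features, and omitting d/d replicate 1, 2 or 3 left 885, 635 and 652. These fits have fewer samples. Depth limits the Dcpp values in d/d, where the sum rests on 17 to 58 estimated fragments.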
